A study of Mus musculus with 10 samples.

Results

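Legumain and most cathepsins are proteases of the lysosome. Transcripts of 10 such genes, Ctsa, Ctsb, Ctsc, Ctsd, Ctsf, Ctsh, Ctsl, Ctss, Ctsz and Lgmn, were read from RNA-seq of microglia sorted from mouse retina. They were taken by symbol from the 55487 genes of the count table, by a rule that sets no threshold on their values but was written with earlier results of these data known, and all 10 passed the filter on low counts. All mice carried Cx3cr1GFP/+, in which 1 copy of the fractalkine receptor gene is exchanged for a gene of green fluorescent protein (GFP), which labels microglia and related myeloid cells. The groups were 8wk STZ (n = 4) and 4wk STZ (n = 3), mice at 8 and 4 weeks of diabetes made with streptozotocin (STZ), which destroys the insulin-producing cells of the pancreas, and littermate Control mice (n = 3). Both retinas of each animal were pooled and digested with papain, itself a cysteine protease related to the cathepsins, and viable GFP-positive cells were sorted. The labels give no age, sex or background strain, so the time after STZ and the age of the animals cannot be told apart.

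Cathepsins are made as inactive precursors, carried to the lysosome largely by mannose 6-phosphate receptors, and activated there by the acid pH, by themselves or by one another. Most are cysteine proteases of the papain family, while cathepsin D is an aspartic protease, cathepsin A a serine carboxypeptidase, and legumain a cysteine protease of another family that cleaves after asparagine. In microglia they degrade engulfed cell debris, trim endosomal receptors and prepare antigens for presentation, and cathepsin S is also secreted and stays active at neutral pH.

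The libraries held 46143178 to 62903489 reads in 8wk STZ, 33266838 to 49051036 in 4wk STZ and 45656309 to 54312248 in Control. The summed reads of 10 microglial markers made up 3.25 to 3.67% of reads in 8wk STZ, 3.42 to 3.81% in 4wk STZ and 3.81 to 4.14% in Control. Reads of 16 rod photoreceptor genes, which the sort should leave out, made up 0.299 to 0.434%, 0.452 to 0.641% and 0.894 to 1.02%. Control 3 and 4wk STZ 3 lay apart from their groups on the first 2 principal components, so the calls are also given without both. In sorted bulk samples, fewer cells of a type and less RNA per cell cannot be told apart.

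Cathepsin S was by far the most abundant of the 10 transcripts in retinal microglia. Per kilobase of exon, Ctss averaged 11424 ± 879, 12058 ± 758 and 11205 ± 854 CPM (counts scaled to a common library size) in 8wk STZ, 4wk STZ and Control, and ranked 2, 3 and 3 among 18925 genes with a length. Lgmn, Ctsd and Ctsz came next, at 2433, 2968 and 2499 CPM per kb in 8wk STZ and 3119, 3061 and 2617 in Control. Ctsb averaged 1004 and 1094 CPM per kb, and Ctsa, Ctsh, Ctsc, Ctsl and Ctsf followed, from 345 down to 58.2 in 8wk STZ and from 375 down to 70.0 in Control. The order of the 10 genes was the same in all 10 libraries but for the place of Lgmn. Ctsd stood above Lgmn in all 4 8wk STZ libraries, without overlap, while in 4wk STZ and Control their ranges overlapped and Lgmn was the higher in 2 of 3 libraries each. Lgmn stood above Ctsz in 1 of 4 8wk STZ libraries, against 3 of 3 in 4wk STZ and 3 of 3 in Control. Ctsd stood above Ctsz in every library, although their ranges overlapped in 8wk STZ and in 4wk STZ. The place of Lgmn and the order among the less abundant genes depended on the length used. With the longest transcript in place of all exons, Lgmn stood above Ctsz in all 10 libraries. Lgmn then stood above Ctsd in 0 of 4 8wk STZ libraries, 3 of 3 in 4wk STZ and 3 of 3 in Control. Their ranges overlapped in all 3 groups with that length. Ctsf stood above Ctsl in all 10 libraries and Ctsh above Ctsa in 4 of 10, among them 3 of the 4 8wk STZ libraries.

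**Figure D1:**
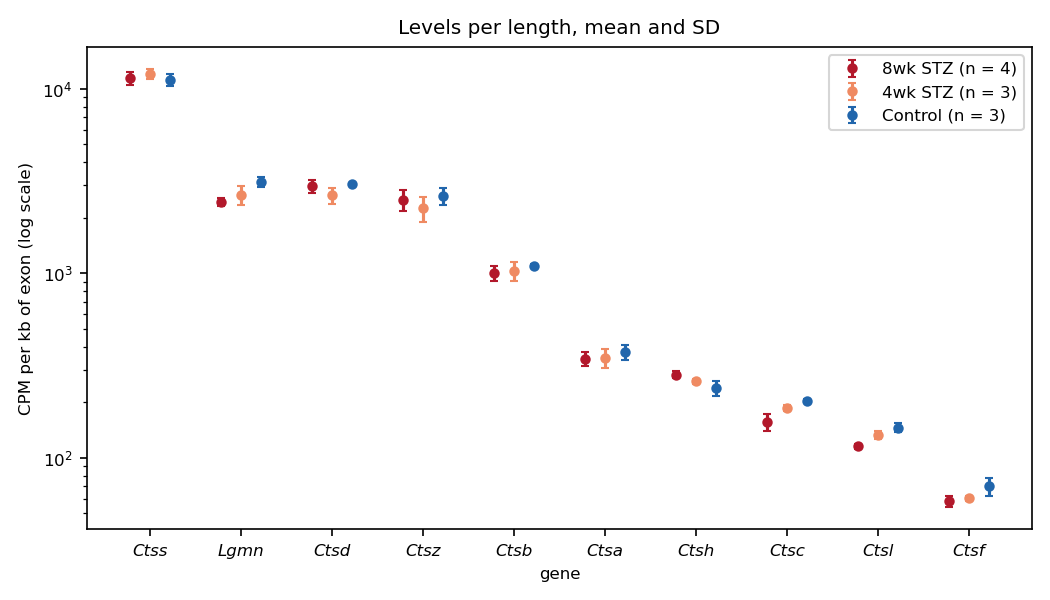
Level of each gene per kilobase of exon (log scale), as mean and SD over the libraries of 8wk STZ (n = 4), 4wk STZ (n = 3) and Control (n = 3). Ctss stands at 11205 CPM per kb in Control, above Lgmn at 3119, and Ctsf lies lowest at 70.0.

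The spread between animals was small for these genes. The coefficient of variation of CPM within a group had a median over the 10 genes of 7.72% in 8wk STZ, 8.21% in 4wk STZ and 6.99% in Control, against 23.3%, 29.9% and 29.5% over all tested genes. Among the 448 genes at least as abundant as the lowest of them, Ctsf, it was 9.46%, 9.65% and 9.65%.

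Promoter windows were read from RefSeq annotation of GRCm38.p6, from 250 bases before to 50 after a gene's start, and 8 of the 10 genes had an entry in 10 windows. The motif CACGTG, the core of the element bound by TFEB and TFE3, which drive lysosomal genes, was found by exact search on both strands. It was present in 5 of the 10 windows, of Ctsa, Ctsd, Lgmn, Ctsl and Ctsf, in 7.15% of all 32851 windows of the same length, and in 11.35% of the 11683 tested genes that have a window. The longer TCACGTGA, which contains it, lay in the windows of Ctsa and Ctsd, in 0.974% of all windows and in 2.11% of those tested genes. The full palindrome of that element, with 1 more base on either side, lay in none of theirs, in 0.326% of all and in 0.753% of the tested genes. GAGGAAGT, a site type of the myeloid factor PU.1, was in the windows of Ctss and Ctsc and in 3.20% of all (3.75% of the tested genes), and the core of the interferon-stimulated response element in that of Ctss and 3.44% of all (3.95% of the tested genes). The AP-1 motif TGAGTCA was in none of the 10 in 5.20% of all windows and in 4.59% of the tested genes. By the gene bounds of GENCODE vM21, the windows of Ctsl, Lgmn and Ctsa that hold CACGTG lie wholly inside the gene. They are thus downstream of its outermost annotated start and need not be promoter. These are matches of letters, not shown sites, and a RefSeq start need not be the one used in these cells.

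The windows of 5 genes are shown to 20 bases past the start, because Ctsl, Ctsc and Lgmn had the largest differences at 8 weeks, while Ctsd and Ctss, abundant genes with a match, had log2 fold changes of -0.04 and 0.03. Capitals mark CACGTG in Ctsl, Lgmn and Ctsd, ACTTCCTC (GAGGAAGT on the other strand) in Ctsc and Ctss, and the interferon-type match in Ctss.
Ctsl: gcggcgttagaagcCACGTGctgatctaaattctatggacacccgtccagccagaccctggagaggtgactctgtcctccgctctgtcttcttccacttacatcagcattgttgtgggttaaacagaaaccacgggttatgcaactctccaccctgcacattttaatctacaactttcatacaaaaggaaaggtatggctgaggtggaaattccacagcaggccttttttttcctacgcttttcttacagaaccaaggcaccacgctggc
Ctsc: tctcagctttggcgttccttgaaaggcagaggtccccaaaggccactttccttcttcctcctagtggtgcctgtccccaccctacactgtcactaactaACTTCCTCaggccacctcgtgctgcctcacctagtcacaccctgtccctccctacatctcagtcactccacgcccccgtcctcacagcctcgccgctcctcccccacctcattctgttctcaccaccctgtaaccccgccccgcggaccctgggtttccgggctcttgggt
Lgmn: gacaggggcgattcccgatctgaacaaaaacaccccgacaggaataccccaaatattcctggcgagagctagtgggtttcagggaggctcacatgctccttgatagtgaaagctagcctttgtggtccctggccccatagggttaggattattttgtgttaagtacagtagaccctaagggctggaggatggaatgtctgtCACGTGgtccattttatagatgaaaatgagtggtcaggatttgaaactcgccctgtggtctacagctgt
Ctsd: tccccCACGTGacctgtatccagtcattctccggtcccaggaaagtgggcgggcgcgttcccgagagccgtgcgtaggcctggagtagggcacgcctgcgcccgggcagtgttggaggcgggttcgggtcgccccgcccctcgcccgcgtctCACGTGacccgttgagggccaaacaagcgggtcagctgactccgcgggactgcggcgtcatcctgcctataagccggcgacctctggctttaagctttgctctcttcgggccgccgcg
Ctss: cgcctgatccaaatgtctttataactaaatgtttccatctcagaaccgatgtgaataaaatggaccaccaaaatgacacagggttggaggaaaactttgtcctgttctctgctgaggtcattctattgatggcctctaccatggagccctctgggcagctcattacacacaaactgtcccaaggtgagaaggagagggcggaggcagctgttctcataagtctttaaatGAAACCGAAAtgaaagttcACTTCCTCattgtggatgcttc
They lie at chr13:64370501-64370770 (minus strand, Ctsl), chr7:88277835-88278104 (plus, Ctsc), chr12:102439073-102439342 (minus, Lgmn, 1 of its 2 windows), chr7:142387808-142388077 (minus, Ctsd) and chr3:95526536-95526805 (plus, Ctss). The matches begin 236 bases before the RefSeq start of the window in Ctsl, 151 in Ctsc, 49 in Lgmn, 245 and 98 in Ctsd, and 21 and 2 in Ctss. Those of Ctsl and Lgmn lie inside the gene as GENCODE bounds it.

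After 8 weeks of diabetes, transcripts of cathepsin L and cathepsin C were 20.9% and 23.3% lower than in Control microglia, while cathepsin S, the most abundant of these proteases, averaged 15514 CPM against 15216 CPM in Control and did not pass the test. Legumain was lower and cathepsin H higher in every 8wk STZ library than in any Control library, but neither passed the test over all genes. In the edgeR quasi-likelihood test with Benjamini-Hochberg adjustment over 18957 genes, 0 of the 10 passed as higher and 2 as lower at an adjusted p below 0.05, against 2.37% of all tested genes in either direction and 1.4% lower. Among the 448 genes at least as abundant as Ctsf, 16.7% passed and 13.6% passed as lower, so 2 of 10 was near the share of genes at these levels. The log2 fold change was below 0 for 8 of the 10, with a median of -0.12 against -0.01 over all tested genes and -0.15 over those 448.

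**Figure D2:**
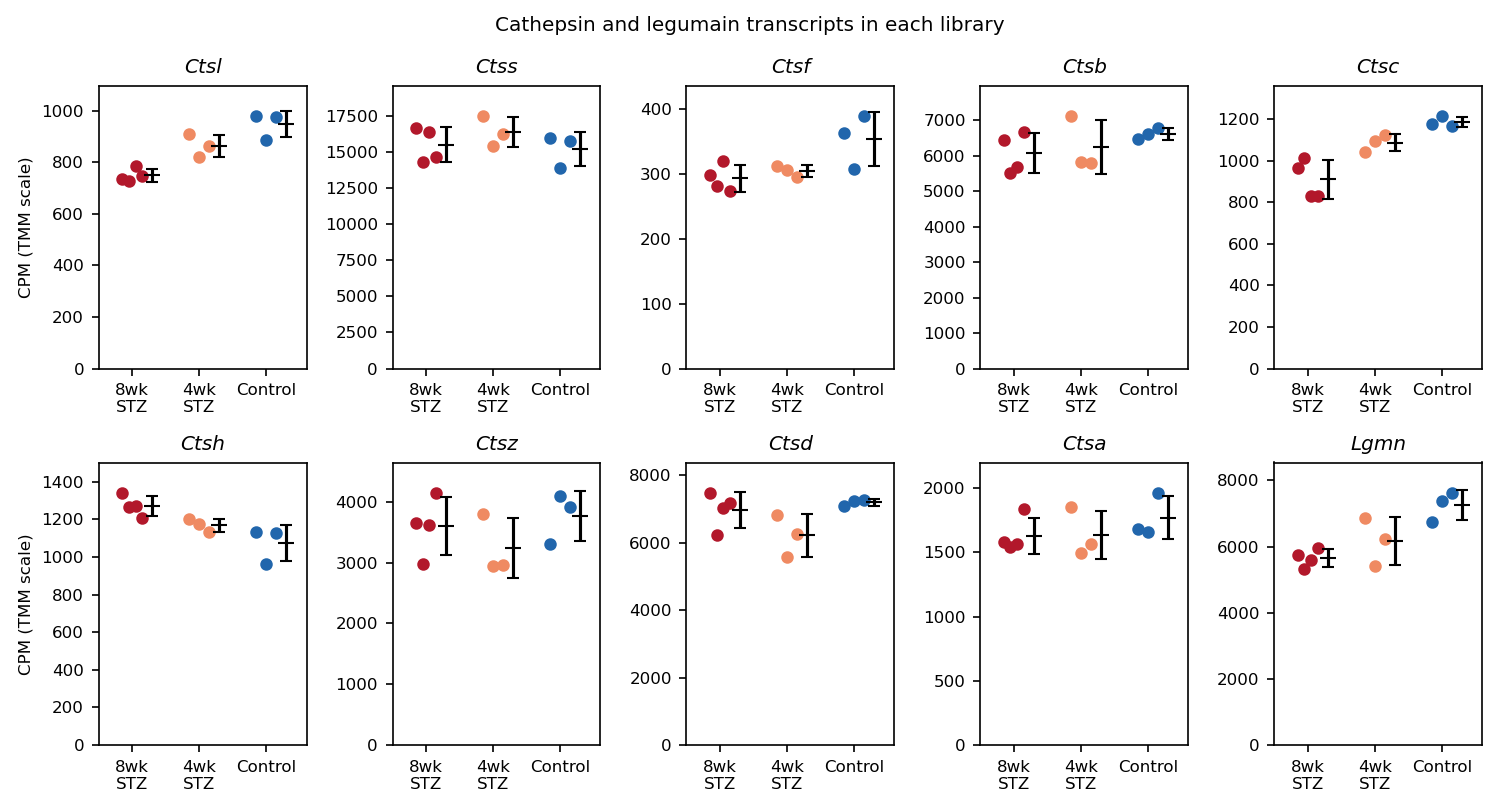
CPM (TMM scale) of each gene in every library, with the mean and SD of the group beside the points, for 8wk STZ, 4wk STZ and Control. All 4 8wk STZ libraries lie below all Control libraries for Ctsl (729 to 785 against 889 to 979 CPM), Ctsc and Lgmn, and above them for Ctsh.

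Among the endopeptidases, which cut within protein chains, Ctsl (chr13:64359337-64370890, minus strand) encodes cathepsin L, a broad protease that can also process the precursor of cathepsin D. Ctsl had 736, 729, 785 and 747 CPM in the 8wk STZ libraries and 909, 819.7 and 862 CPM in 4wk STZ, against 979, 889 and 975 CPM in Control. The 3 groups did not overlap except that 1 4wk STZ library lay above the lowest Control library. Ctsl was lower in 8wk STZ than in Control by a log2 fold change of -0.34 (SE 0.0716, 95% interval -0.50 to -0.18, edgeR adjusted p = 0.0345), a difference of -20.9%. Without any 1 of the 7 libraries of 8wk STZ and Control the adjusted p lay between 0.0503 and 0.124, and without Control 3 and 4wk STZ 3 together it was 0.133 with a log2 fold change of -0.32. The annotation places an antisense gene, Gm47123, over 26.8% of its exon bases and a processed pseudogene, Gm49230, over 6.09%, and both were listed at 0 in every group.

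Ctss (chr3:95526786-95556403, plus strand) encodes cathepsin S, which in antigen-presenting cells cleaves the invariant chain from MHC class II. It had 16691, 14336, 16380.2 and 14648 CPM in 8wk STZ and 17471, 15429 and 16224 CPM in 4wk STZ, against 15978, 13880.3 and 15788 CPM in Control. The groups overlapped. Its log2 fold change at 8 weeks was 0.03 (SE 0.0832, adjusted p = 0.94), and the 95% interval allows a level from 0.898 to 1.16 times that of Control.

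Ctsf (chr19:4855130-4860918, plus strand) encodes cathepsin F, another endopeptidase of the papain family. It averaged 293 ± 20.7 CPM in 8wk STZ and 304 ± 8.81 in 4wk STZ, against 353 ± 41.6 CPM in Control. Only 1 of the 4 8wk STZ libraries, at 320.0 CPM, stood above the lowest Control library, at 307 CPM. The log2 fold change of -0.27 did not pass (SE 0.0945, adjusted p = 0.188). Ctsb (chr14:63122462-63145923, plus strand) encodes cathepsin B, which acts both within chains and as a carboxydipeptidase. It averaged 6076 ± 554, 6243 ± 754 and 6618 ± 159 CPM in 8wk STZ, 4wk STZ and Control, with overlapping groups and a log2 fold change of -0.12 at 8 weeks (adjusted p = 0.63). Fdft1, on the other strand, shares 12.8% of its exon bases and stood at 28.3, 24.7 and 33.7 CPM.

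Among the exopeptidases, which trim chain ends, Ctsc (chr7:88278085-88310888, plus strand) encodes cathepsin C, the dipeptidyl peptidase that activates granule serine proteases of neutrophils, mast cells and cytotoxic lymphocytes. Ctsc had 967, 1013, 833 and 829 CPM in 8wk STZ and 1042, 1096 and 1124 CPM in 4wk STZ, against 1176, 1215 and 1170.5 CPM in Control. No library of any group overlapped another group, and 8wk STZ lay lowest and Control highest. Ctsc was lower in 8wk STZ than in Control by a log2 fold change of -0.38 (SE 0.0852, 95% interval -0.57 to -0.19, edgeR adjusted p = 0.0447), a difference of -23.3%. The call was kept without 8wk STZ 2 and lost without any other single library, with adjusted p between 0.0567 and 0.122, and it was lost without Control 3 and 4wk STZ 3 together (adjusted p = 0.121, log2 fold change -0.39). Markers of neutrophils, mast cells and basophils were near 0, as 8 neutrophil genes had 0 to 6 reads each per group. Of the mast cell and basophil genes, Mcpt4, Mcpt8 and Fcer1a had no read, and Cpa3, Tpsb2 and Cma1 had 0 to 3 each per group. Gzma, a granule protease of cytotoxic lymphocytes, had 312, 172 and 413 reads summed over the libraries of 8wk STZ (n = 4), 4wk STZ (n = 3) and Control (n = 3), not scaled to depth.

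Ctsh (chr9:90054152-90076089, plus strand) encodes cathepsin H, an aminopeptidase. It had 1341, 1266, 1268 and 1205 CPM in 8wk STZ and 1199, 1176 and 1132 CPM in 4wk STZ, against 1132, 963 and 1125 CPM in Control. The 8wk STZ libraries lay above all libraries of both other groups. The log2 fold change against Control was 0.24 (SE 0.0781, 95% interval 0.07 to 0.41), which did not pass (adjusted p = 0.142). With scaling by library totals, which moved the median of all genes to 0.10 on the log2 scale, it was 0.35 with an adjusted p of 0.0375. Ctsz (chr2:174427493-174439039, minus strand) encodes cathepsin Z, a carboxypeptidase. It averaged 3601 ± 478, 3238 ± 491 and 3771 ± 408 CPM in 8wk STZ, 4wk STZ and Control, and the groups overlapped (log2 fold change at 8 weeks -0.07, adjusted p = 0.896).

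Ctsd (chr7:142375911-142388038, minus strand) encodes the aspartic protease cathepsin D, a main degrader of protein in lysosomes. It averaged 6977 ± 540.3, 6222 ± 630.3 and 7197 ± 95.2 CPM in 8wk STZ, 4wk STZ and Control. The 8wk STZ and Control libraries overlapped, with a log2 fold change of -0.04 (adjusted p = 0.894) that took the other sign, at 0.06, with scaling by library totals. The predicted gene Gm49369 shares 34.4% of its exon bases on the same strand and was listed at 0 in every group. Ctsa (chr2:164832873-164841032, plus strand) encodes cathepsin A, which besides its protease activity holds beta-galactosidase and neuraminidase 1 in a complex. It had 1580.5, 1538, 1561 and 1834 CPM in 8wk STZ and 1849, 1494 and 1561 CPM in 4wk STZ, against 1681, 1661 and 1963 CPM in Control. One 8wk STZ library stood above the other 3, inside the range of Control, and the log2 fold change of -0.12 did not pass (adjusted p = 0.679). Pltp and Neurl2, on the other strand, share 10.5% and 6.87% of its exon bases.

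Lgmn (chr12:102394084-102439813, minus strand) encodes legumain, also called asparaginyl endopeptidase, which processes several cathepsins from their single-chain to their 2-chain forms. It had 5752, 5328, 5581 and 5944 CPM in 8wk STZ and 6859, 5410.5 and 6213 CPM in 4wk STZ, against 6735, 7380.1 and 7624 CPM in Control. All 8wk STZ libraries lay below all Control libraries, and 4wk STZ overlapped both. Its log2 fold change at 8 weeks was -0.36 (SE 0.0872, 95% interval -0.55 to -0.17), about the size of those of Ctsl and Ctsc, with an adjusted p of 0.0616 that did not pass. Without 4wk STZ 2 the adjusted p was 0.0437, and without each other single library it lay between 0.0515 and 0.191. The authors' deposited table gives an FDR of 0.0156 for Lgmn, 0.0143 for Ctsc and 0.0255 for Ctsl at 8 weeks, and it lists 7.29% of its 14475 genes below an FDR of 0.05 in that comparison.

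**Figure D3:**
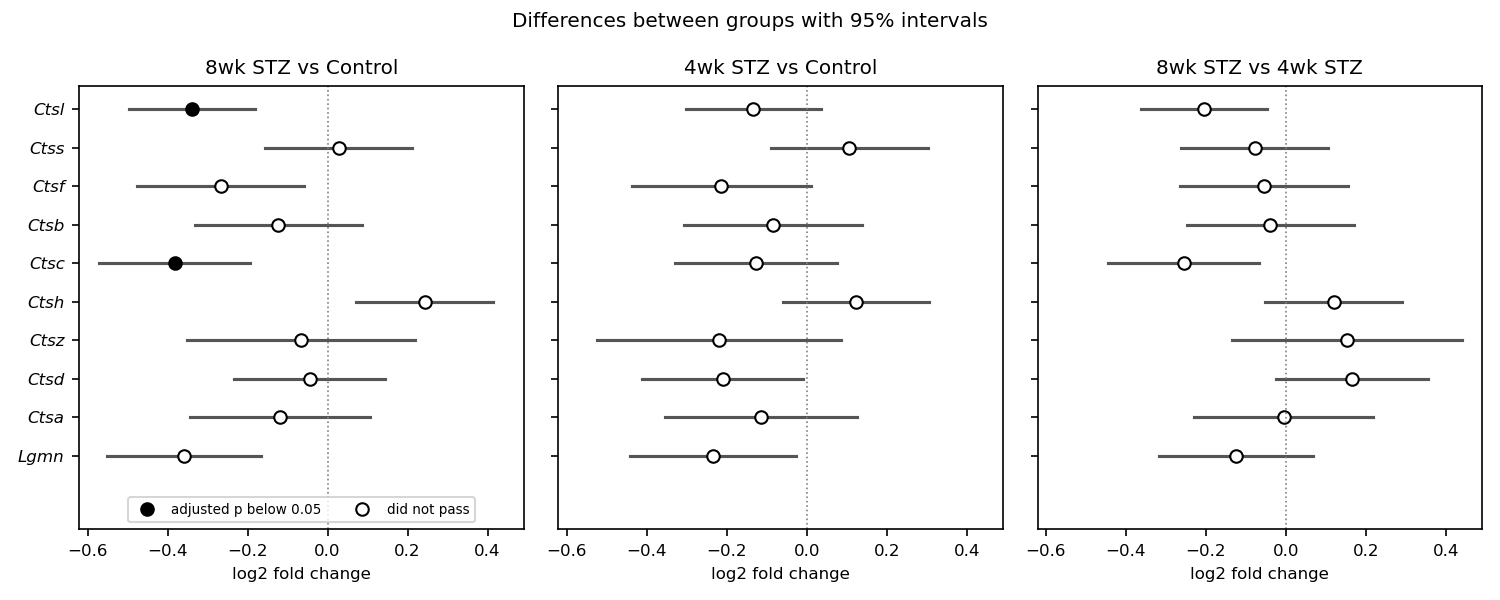
Log2 fold change of each gene with its 95% interval in the 3 comparisons, where filled points mark an adjusted p below 0.05. Ctsl (-0.34) and Ctsc (-0.38) are filled in 8wk STZ against Control, and no point is filled in the other comparisons.

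Without overlap between the groups, 1 of the 10 genes (Ctsh) was higher and 3 (Ctsl, Ctsc and Lgmn) were lower in 8wk STZ than in Control, against 8.91% and 7.99% of all tested genes and 6.03% and 31.7% of those at these levels. Transcripts of rods moved in the same comparison, as 16 of 16 rod genes were lower. Of 10 microglial markers, 1 was higher and 4 were lower. These are calls of the edgeR test, which called 0.971% of all tested genes as higher and 1.4% as lower. Among genes at the levels of the 10 proteases it called 3.12% and 13.6%. The dissociation response genes, Fos and others, made up 0.0965 to 0.140% of reads in 8wk STZ, against 0.0597 to 0.0947% in Control. With retinal marker and mitochondrial genes left out of the library size, the edgeR test gave Ctsl at -0.34 (adjusted p = 0.0333) and Ctsc at -0.39 (adjusted p = 0.0435). That step changes only the scale of each library, so it cannot show the part of those genes in the result. The markers left out included Apoe, which microglia also express. It had 2726076, 520730 and 486366 reads summed over the libraries of 8wk STZ (n = 4), 4wk STZ (n = 3) and Control (n = 3). These sums are not scaled to the number or depth of the libraries. The Muller glia and astrocyte list, which holds Apoe, made up 0.620 to 2.10%, 0.344 to 0.626% and 0.278 to 0.574% of reads. Reads of mitochondrially encoded proteins made up 0.667 to 0.975% in 8wk STZ, against 1.41 to 1.56% in Control. Beyond the changed library size, the part of these genes in the result was not tested.

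At 4 weeks of diabetes none of the 10 genes passed the test. In the edgeR quasi-likelihood test 0 of the 10 and 0 (0%) of 18957 genes passed, with 1849 genes at an unadjusted p below 0.05. DESeq2 called 314 genes, the edgeR likelihood ratio test 244 and limma-voom 0, and each called 0 of the 10. Of the 10, 2 had an unadjusted p below 0.05 and were lower, against 4.97% of all tested genes. Lgmn was one, with a log2 fold change of -0.23 (95% interval -0.44 to -0.03, unadjusted p = 0.03, adjusted p = 0.472). Ctsd was the other, with 6833, 5574 and 6259 CPM in 4wk STZ against 7087, 7247 and 7256 CPM in Control (log2 fold change -0.21, unadjusted p = 0.0428, adjusted p = 0.494). Ctsd and Ctsc, both lower, were the 2 genes whose 4wk STZ and Control libraries did not overlap, against 6.25% of all tested genes and 12.5% of those at these levels. The log2 fold change of Ctsc was -0.13 and that of Ctsl -0.13, with adjusted p of 0.731 and 0.633. The median over the 10 was -0.13, against -0.00388 over all tested genes and 0.01 over the 448 abundant ones.

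Between the diabetic groups, 8wk STZ against 4wk STZ, none of the 10 passed, and Ctsc and Ctsl were nearest to it. The edgeR test called 0 of the 10, against 0.918% of all tested genes, and DESeq2, limma-voom and the likelihood ratio test also called 0 of the 10, of which 2 had an unadjusted p below 0.05 and were lower, against 6.48% of all. Ctsc differed by a log2 fold change of -0.26 (SE 0.0853, unadjusted p = 0.0124, adjusted p = 0.21) and Ctsl by -0.21 (SE 0.0717, unadjusted p = 0.0155, adjusted p = 0.232). The groups did not overlap for Ctsc and Ctsl, which were lower in 8wk STZ, and for Ctsh, which was higher (log2 fold change 0.12, adjusted p = 0.564). These are 2 lower and 1 higher of 10, against 6.97% and 8.39% of all tested genes and 28.8% and 6.7% of those at these levels. Ctsd, which was lowest in 4wk STZ, had a log2 fold change of 0.17 between the times (adjusted p = 0.435). The comparisons with Control share the Control libraries, so their values for a gene are not independent.

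Summed over the 10 genes, the proteases took overlapping parts of the reads in the 3 groups. They made up 4.43 ± 0.131% of reads in 8wk STZ (n = 4), 4.24 ± 0.389% in 4wk STZ (n = 3) and 4.39 ± 0.0727% in Control (n = 3). On the TMM scale the sums were 42670.1 ± 2439, 43298 ± 3738 and 45377 ± 1429 CPM. Within that sum the shares of some of the genes did not overlap between groups. Ctsh made up 2.77 to 3.23% of the reads of the 10 genes in 8wk STZ and 2.53 to 2.94% in 4wk STZ, against 2.18 to 2.52% in Control. Lgmn made up 12.8 to 13.7% and 13.5 to 14.6%, against 15.0 to 16.7% in Control. Ctsl made up 1.64 to 1.86% in 8wk STZ against 2.01 to 2.18% in Control, without overlap. Ctsd made up 13.9 to 14.8% in 4wk STZ against 15.4 to 16.4% in Control, without overlap, while its 8wk STZ libraries (15.9 to 16.7%) overlapped Control. The share of Ctss averaged 36.4% and 37.9%, against 33.5%, and only its 4wk STZ libraries (36.9 to 38.5%) lay above all Control libraries (31.4 to 35.6%). The shares of Ctsa, Ctsb, Ctsc, Ctsf and Ctsz overlapped Control in both diabetic groups. Ctsc, called at 8 weeks, made up 1.91 to 2.58% in 8wk STZ against 2.49 to 2.75% in Control. Shares of 1 total move together, and no test was made of them.

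**Figure D4:**
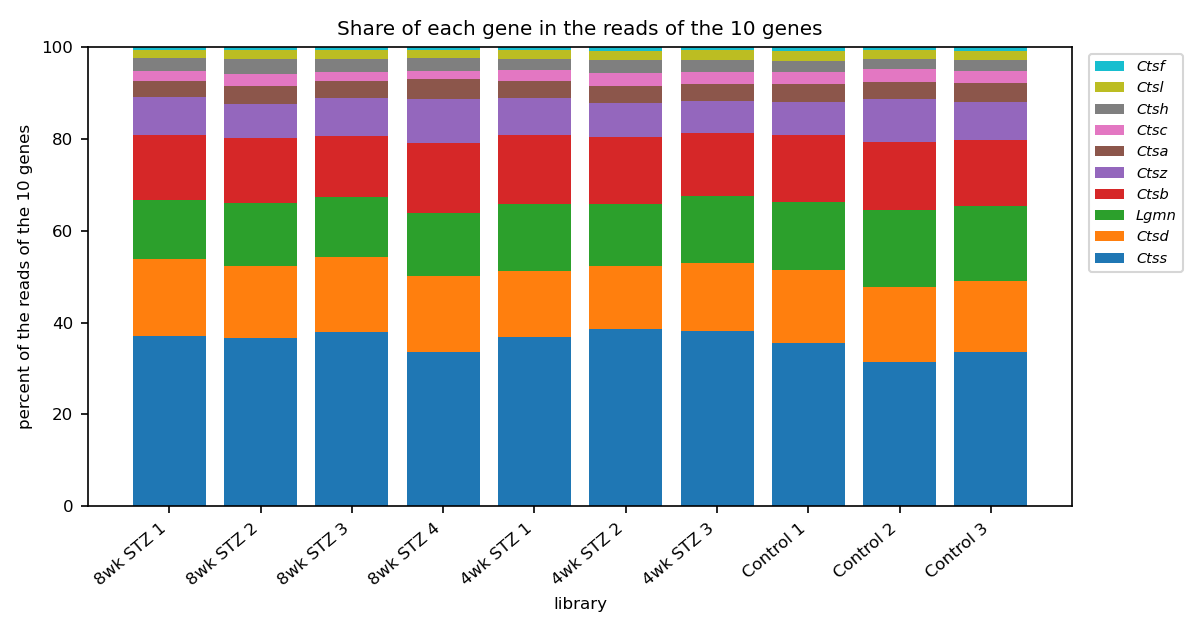
Percent of the reads of the 10 genes that each gene takes in every library, from 8wk STZ at the left over 4wk STZ to Control at the right. Ctss takes the most in each library and averages 36.4%, 37.9% and 33.5% in the 3 groups, and Lgmn averages 13.3%, 14.2% and 16.0%.

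Cystatin C, the secreted inhibitor of papain-family cathepsins encoded by Cst3, was present at 29832 ± 4675, 20628 ± 2441 and 22754 ± 3455 CPM in 8wk STZ, 4wk STZ and Control. For each read of the 10 protease genes there were 0.73, 0.621, 0.802 and 0.636 Cst3 reads in the 8wk STZ libraries and 0.491, 0.461 and 0.475 in 4wk STZ, against 0.512, 0.434 and 0.555 in Control. The 8wk STZ libraries lay above all others in this ratio, for which no test was made. Its 10 genes include Ctsd, Ctsa and Lgmn, which are not of the papain family. The CPM of Cst3 alone overlapped, at 24352 to 34520 in 8wk STZ against 19185 to 26084 in Control. Cst3 itself did not pass at 8 weeks against Control (log2 fold change 0.39, SE 0.141, adjusted p = 0.199) or against 4 weeks (0.53, adjusted p = 0.115). Of the 17 listed inhibitors, 6 were tested and 0 passed the edgeR test in any comparison, with a median log2 fold change at 8 weeks of 0.70. Of these 6, 3 had an unadjusted p below 0.05 at 8 weeks against Control, where 15.7% of all tested genes had one. DESeq2 called 2, the likelihood ratio test 2 and limma-voom 0. Cstb, the cytosolic inhibitor cystatin B, stood at 70.2 ± 11.2, 60.1 ± 6.67 and 59.5 ± 7.82 CPM (adjusted p = 0.525 at 8 weeks). Cst7, cystatin F, which inhibits cathepsin C and was chosen after its values were seen, stood at 35.2 ± 9.78, 13.6 ± 4.54 and 18.2 ± 4.65 CPM (log2 fold change at 8 weeks 0.95, adjusted p = 0.14).

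**Figure D5:**
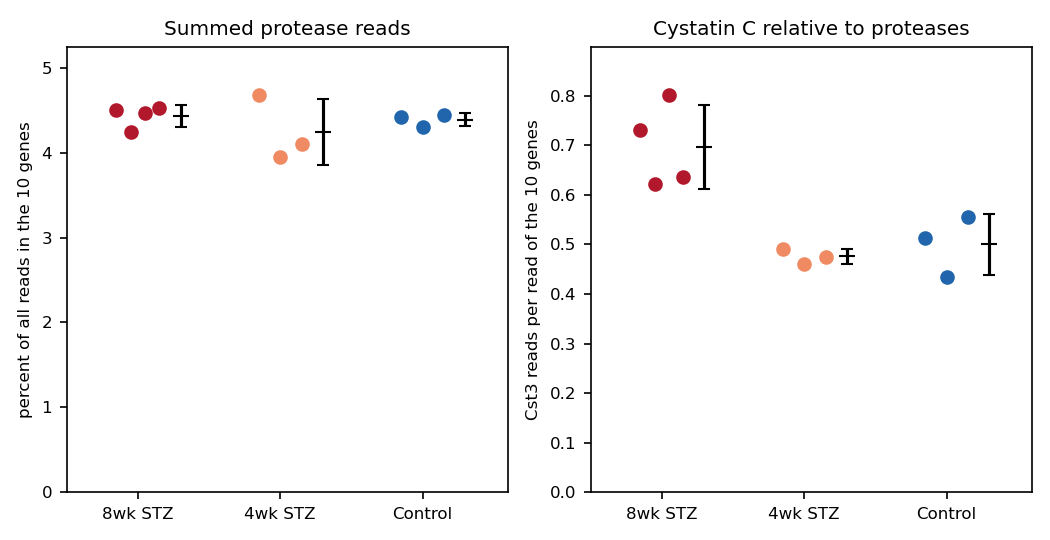
Percent of all reads that fall in the 10 protease genes (left) and Cst3 reads per read of the 10 genes (right) in each library, with mean and SD, for 8wk STZ, 4wk STZ and Control. The summed reads overlap between the groups, while the ratio is 0.621 to 0.802 in 8wk STZ against 0.434 to 0.555 in Control.

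Few other cathepsins were transcribed in these cells. Of 14 further members of the family, 13 were in the table and 3 were tested, and 0 passed the edgeR test in any comparison. Ctso, a little-studied papain-family member, stood at 79.6 ± 8.45, 88.8 ± 7.72 and 81.1 ± 13.3 CPM in 8wk STZ, 4wk STZ and Control. Ctse, the endosomal aspartic protease cathepsin E, stood at 15.3 ± 4.23 and 27.3 ± 3.32 CPM in the diabetic groups against 10.3 ± 2.59 CPM in Control, and all 4wk STZ libraries (24.1 to 30.8 CPM) lay above all Control libraries (7.36 to 11.9 CPM). Its log2 fold change at 4 weeks was 1.40 (unadjusted p = 0.000339), with an adjusted p of 0.239. DESeq2 and the likelihood ratio test each called 1 gene of this list at 4 weeks, which was Ctse, and limma-voom called 0. The osteoclast protease gene Ctsk had 46, 23 and 13 reads summed over the libraries of 8wk STZ, 4wk STZ and Control, or 0.202, 0.197 and 0.0920 CPM on average. Ctsg of neutrophils and the genes Ctsj, Ctsq, Ctsr, Cts3 and Cts7 had none.

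Among other lysosomal peptidases, 7 of 9 were tested, and 1 passed as lower at 8 weeks (median log2 fold change -0.22), against 1.4% of all tested genes. Tpp1, tripeptidyl peptidase 1, averaged 518 ± 30.2 CPM in 8wk STZ and 633 ± 77.7 in 4wk STZ, against 754 ± 95.2 CPM in Control, and fell by 0.54 on the log2 scale at 8 weeks (adjusted p = 0.0263). Its call was lost without 8wk STZ 1, 2 or 3 or Control 1 or 3 (adjusted p 0.0539 to 0.0973). Prcp, a lysosomal carboxypeptidase, averaged 163 ± 13.2 CPM in 8wk STZ against 224 ± 10.5 CPM in 4wk STZ and was lower at 8 weeks (log2 fold change -0.45, adjusted p = 0.0432), a call lost without any single library (0.0569 to 0.141). Of the 3 partners named for cathepsin A, beta-galactosidase, neuraminidase 1 and Galns, 1 passed as lower at 8 weeks against Control, against the same 1.4%. Glb1, beta-galactosidase, averaged 106 ± 6.76 and 121 ± 11.8 CPM in the diabetic groups against 149 ± 3.69 CPM in Control and fell by 0.49 on the log2 scale at 8 weeks (adjusted p = 0.0226). Without 8wk STZ 1, 2 or 3 or any Control library the adjusted p was 0.058 to 0.0748.

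Of 5 genes for endosomal Toll-like receptors, which lysosomal proteases trim, and their chaperone, 2 passed as lower at 8 weeks (median log2 fold change -0.34). Of all tested genes 1.4% passed as lower, and 13.6% of the 448 genes at least as abundant as Ctsf. Tlr9, the receptor for unmethylated DNA, averaged 10.8 ± 1.02 CPM in 8wk STZ and 11.2 ± 2.39 in 4wk STZ, against 21.1 ± 3.36 CPM in Control (log2 fold change at 8 weeks -0.97, adjusted p = 0.031). Unc93b1, the chaperone that carries these receptors to the endosome, averaged 2280.0 ± 105 and 2299.9 ± 212 CPM against 2908 ± 159 CPM in Control (log2 fold change at 8 weeks -0.35, adjusted p = 0.047). The call of Tlr9 was lost without any 1 library of 8wk STZ or Control (adjusted p 0.052 to 0.114), and that of Unc93b1 without any library but 4wk STZ 1 (0.0532 to 0.153). None of the 9 antigen presentation genes passed the edgeR test (median 0.48), 0 had an unadjusted p below 0.05 and the other 3 tools called 0. Cd74, the invariant chain that cathepsin S cleaves, varied widely at 2348 ± 1358 CPM in 8wk STZ, 1872 ± 1254 in 4wk STZ and 1688 ± 989.6 in Control. H2-Ab1, a class II chain, stood at 682 ± 374, 588 ± 316 and 487 ± 226 CPM.

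Of the genes listed for sorting and delivery to lysosomes, 0 of 16 passed the edgeR test in any comparison, with a median log2 fold change of -0.12 at 8 weeks. At 8 weeks against Control 4 of them had an unadjusted p below 0.05, where 15.7% of all tested genes had one. DESeq2 called 2, limma-voom 1 and the likelihood ratio test 1. Psap, prosaposin, stood at 4560.1 ± 407, 4738 ± 478 and 4376 ± 982 CPM in 8wk STZ, 4wk STZ and Control. Grn, progranulin, whose loss disturbs cathepsin D activity, stood at 2196 ± 204 and 2478 ± 276 CPM in the diabetic groups against 3023 ± 302 CPM in Control (log2 fold change at 8 weeks -0.46, adjusted p = 0.0505). None of 9 lysosomal transcription factors and regulators passed at 8 weeks (median -0.02), of which 1 had an unadjusted p below 0.05, and DESeq2, limma-voom and the likelihood ratio test called 0. Among them Tfe3, a factor that binds CACGTG, averaged 134, 144 and 148 CPM, and Flcn, folliculin, 139, 99.2 and 131 CPM. Over these 8 lists, 0 genes passed the edgeR test at 4 weeks, and 1, Prcp, passed at 8 weeks against 4 weeks. The lists held 3, 6, 7, 16, 9, 3, 9 and 5 tested genes. At 4 weeks 10 of them had an unadjusted p below 0.05 in the edgeR test, against 9.75% of all tested genes. DESeq2 called 3, the likelihood ratio test 2 and limma-voom 0, against 314, 244 and 0 of all 18957 genes. Of these counts the Toll-like receptor list held 3, 2, 1 and 0. Between the times the counts over the 8 lists were 13, 6, 4 and 1. Over all genes these were 13.7% at an unadjusted p below 0.05 and 1004, 759 and 199 calls.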

How the data were processed

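RNA was measured in 10 libraries of sorted retinal microglia, grouped by the labels as 8wk STZ (n = 4), 4wk STZ (n = 3) and Control (n = 3). Per the labels' protocols, cDNA was made from low amounts of RNA by a SMARTer kit that does not mark strand and sequenced in pairs (NovaSeq). Alignment and counting tools listed in the submitters' processing notes are STAR, featureCounts and Salmon, next to bcl2fastq, limma, edgeR and GRCm38 as the build. How strand and multiply matching reads were handled is not given in the sources used here, nor is the annotation, so reads of overlapping genes can be shared or split. The authors deposited raw counts per gene for 55774 entries, of which 287 repeat an identifier with identical counts and were dropped. A second deposited table holds the authors' log2 fold changes, log2 CPM, a likelihood ratio score and p-values with FDR, used only where named. Of its numeric columns, 1 was not used.

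Counts were filtered with filterByExpr by group (18957 genes), scaled by TMM, and modelled in edgeR 4.0.16 (R 4.3.3) by the 3 group means of the 10 libraries, which leaves 7 residual degrees of freedom. The quasi-likelihood F-test (robust) of each contrast was adjusted by Benjamini-Hochberg over all genes tested, with a call at an adjusted p below 0.05. CPM are on the TMM scale, as mean ± SD. SE and 95% intervals belong to log2 fold changes. The biological coefficient of variation was 0.564. Levels per kilobase divide CPM by the exon length of GENCODE vM21 (GRCm38). Alternatives used DESeq2 1.42.0, limma 3.58.1 (voom), other scalings and filters, a replicate block and left-out libraries. The test was run on simulated counts with known changes first. No pair of libraries of the same group agreed within sampling noise (chi-square over degrees of freedom at least 48.2), and pairs across groups were not compared. Nothing shows that libraries came from separate cages or days. The p-values weigh each group difference against the spread between these animals. A difference that a group shared through cage or day cannot be told apart from one of STZ.

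The 10 genes and all lists were chosen with earlier results of these data known. All 10 are named in each comparison, with the called genes of each pathway list or, where none was called, those 2 with the highest level. Gzma and the neutrophil, mast cell, basophil and dissociation genes were named as markers. Other marker lists gave 0.00647 to 0.0696%, 0.0152 to 0.0414% and 0.0142 to 0.0432% of reads for border macrophages in 8wk STZ, 4wk STZ and Control.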

Additional observations from a re-analysis of the deposited data

Results flagged for a closer look

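One value stood apart within a group of 4. Ctsa, cathepsin A, was at 1834 CPM in 8wk STZ 4, against 1538 to 1580.5 CPM in the other 8wk STZ libraries, and the gap took 0.857 of the range of the group, above Dixon's 95% critical value. Of 22 sets of 4 values examined this way, 1 passed, and chance gives about 1 in 20. Ctsa was not called with or without that library.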

How the results depend on the processing

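Ctsl, Ctsc, Lgmn and Ctsh kept their direction at 8 weeks against Control under all 22 alternatives, and Ctsl was called in 10, Ctsc in 8, Lgmn in 6 and Ctsh in 1 of them. Of the 10 genes, 2 were called at 8 weeks, against 3 with DESeq2, limma-voom, the likelihood ratio test or upper-quartile scaling, 1 (Ctsh, higher) with library totals, 1 with only the 2 groups compared, 0 without the filter on low counts, 0 with the replicate block, 0 without Control 3 and 4wk STZ 3, a choice made after seeing the data, and 0 to 2 with 1 library left out. Over all genes 449 were called at 8 weeks, 0 at 4 weeks and 174 between the times. These counts were 1451, 314 and 1004 with DESeq2, and 1166, 244 and 759 with the likelihood ratio test. Without the filter 12 genes were called at 4 weeks and 277 between the times, and 100 were called there with only the 2 groups compared. Without Control 3 and 4wk STZ 3, 275 were called at 8 weeks and 6 between the times. With 1 library left out they ranged from 206 to 462, 0 to 1 and 13 to 118. Library totals turned the share of higher calls at 8 weeks to 66.05%, and upper-quartile scaling to 30.94%, from 40.98%. Small differences changed sign. With library totals Ctsd was at 0.0574, Ctsz at 0.0365 and Ctso at 0.0738 on the log2 scale at 8 weeks against Control, and Ctsa at 0.0804, Ctsb at 0.0449, Ctsf at 0.0314 and Ctss at 0.0067 between the times. Ctss was at -0.0187 with upper-quartile scaling, Ctsa at 0.0193 between the times without the filter and at 0.00119 at 4 weeks without Control 3 and 4wk STZ 3. With 1 library left out, values at 8 weeks ranged from -0.0767 to 0.00671 for Ctsd, -0.035 to 0.0641 for Ctss, -0.154 to 0.0141 for Ctsz, -0.131 to 0.103 for Ctso, -0.0533 to 0.258 for Psap and -0.0421 to 0.147 for Flcn, and between the times from -0.067 to 0.0944 for Ctsa and -0.0894 to 0.0674 for Ctsb. The causes were not tested. The labels do not say whether replicate numbers pair the libraries. Same-numbered libraries correlated at -0.03 to 0.03 in their deviations and differently numbered ones at -0.04 to 0.04. Such values show no shared deviation but cannot show that libraries were prepared apart. A replicate block gave 44, 0 and 0 genes, with Ctsc at -0.34 (adjusted p = 0.179), Ctsl at -0.34 (adjusted p = 0.143), Ctso at 0.0085 and Flcn at -0.0416 at 8 weeks.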
